A study of Mus musculus with 4 samples.

Results

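The genes of the mitotic spindle, the kinetochore and the G2/M transition were followed in B16F10 cells treated with plumbagin. The set held 35 genes given by symbol: cyclins, kinases and phosphatases that start mitosis, kinetochore and checkpoint genes, kinesins, and genes of the spindle, its midzone and the exit from mitosis. A gene was represented by the probe set annotated to it alone that had the highest mean over the 4 arrays. In this way 33 of the 35 genes were measured, among 17097 genes in all. Ccnb1, which encodes cyclin B1, and Nuf2, an outer kinetochore gene, were not analysed here. All 33 measured genes lay above the background level, a log2 value of 5.05, below which 95% of the 41 odorant receptor genes (Olfr) on the array fell, so no mitotic gene was lost to a filter on low values.

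B16F10 is a pigmented mouse melanoma cell line of C57BL/6 origin, and plumbagin is a plant naphthoquinone. The 2 control samples (control 1 and control 2) were B16F10 cells given MilliQ water, 0 µM plumbagin, and the 2 treated samples (plumbagin 1 and plumbagin 2) were B16F10 cells given 2 µM plumbagin, all for 24 h. Total RNA of each sample was hybridised to 1 Affymetrix mouse array, and values are log2 expression, so that a difference of 1 is a doubling of signal. Whether the pair of samples in each group came from different cultures is not stated in the labels, and p-values therefore measure only the spread between these samples, which may be technical. No genetic change was made, and a single cell line, dose and time were measured.

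The labelled cell line was checked against marker genes. All 9 of 9 melanocyte markers lay above background, at mean levels of 8.55 to 12.3, while 0 of 6 fibroblast and 0 of 6 epithelial markers did. Of the immune and endothelial markers, Cd3e, Cd14 and Kdr lay above it, at levels no higher than 6.22. Array medians (log2) ranged from 4.32 to 4.39. Plumbagin 1 stood apart in its 9 hybridisation spike-in probe sets, with a mean of 9.36 against 8.18 to 8.51 on the other arrays. The gap between the 3-prime and 5-prime probe sets of beta-actin, a gauge of RNA integrity, was 0.47 to 0.56, lowest in control 1 and highest in plumbagin 1. The same gap for Gapdh was -0.028 to 0.010, lowest in plumbagin 2 and highest in control 2, so the 2 genes ordered the arrays differently. Their part in the results was not tested.

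Entry into mitosis is driven by cyclin-dependent kinase 1 bound to B- and A-type cyclins. Its activity is raised by CDC25 phosphatases and by the Polo and Aurora kinases, and the spindle checkpoint then holds the anaphase-promoting complex inactive until every kinetochore is attached. Transcripts of these genes are low in G1 and rise together in G2, when the MuvB complex with B-MYB and FOXM1 acts at their promoters. In quiescent or arrested cells the same MuvB core, as part of the DREAM complex, represses them. The promoter elements through which this works are the cell cycle genes homology region, or CHR, and CCAAT boxes bound by NF-Y. For this reason the levels of these transcripts are widely used as a measure of how many cells of a population are in G2 or mitosis. In bulk RNA, fewer such cells and less of these transcripts per cell cannot be told apart.

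Promoter windows of 300 bases, 250 before and 50 after a RefSeq transcription start site (GRCm38.p6), were searched for 3 motifs on both strands: the CHR as TTTGAA or TTCGAA, the CCAAT box as CCAAT, and an E2F core as TCCCGC. Motifs of different names can overlap by an end base only. A window was found for 29 of the 35 genes, 30 windows in all, since Prc1 had a pair. Aurkb, Ccna2, Cdc25c, Foxm1, Kif20a and Tpx2 were not searched. A CHR was present in 23 of the 30 windows (76.7%), against 19.2% of all 32851 windows and 17.4% of 46 windows of G1/S and DNA replication genes. Within 50 bases of the start site on either side the shares were 70%, 5.31% and 8.7%. CCAAT boxes were present in 80% of the mitotic windows against 37.4% of all windows, and both elements together in 70% against 7.52%. The E2F core was present in 46.7% of the mitotic windows, in 65.2% of the G1/S windows and in 20% of all windows. A match is a description of the letters and not evidence of binding in these cells.

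**Figure D1:**
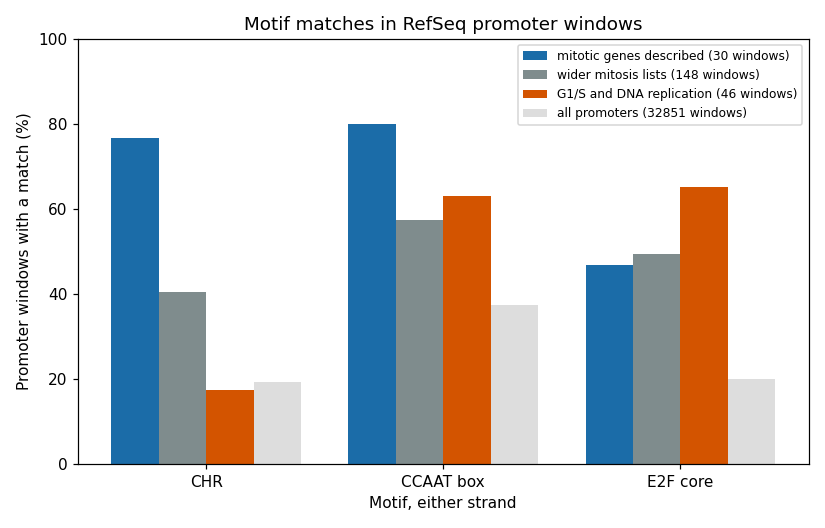
Share of RefSeq promoter windows with at least 1 match to each motif on either strand (vertical axis, percent), for the mitotic genes described, the wider mitosis lists, the G1/S and DNA replication genes and all windows. The CHR bar of the mitotic genes stands at 76.7%, above 40.5% for the wider lists and 19.2% for all windows, while the E2F bar is highest for the G1/S genes.

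The windows of the 4 genes with a CHR that varied most over the 4 arrays, whatever the treatment, are shown as examples of where the elements lie, with Plk1 as an example of the mitotic kinases (chosen after its values were seen). CHR and CCAAT matches on either strand are in capitals, and each window is read from 5′ to 3′ along its gene. They are Mki67 at chr7:135716330-135716629 (minus strand), Cenpf at chr1:189688037-189688336 (minus strand), Ndc80 at chr17:71526808-71527107 (minus strand), Cdca3 at chr6:124829926-124830225 (plus strand) and Plk1 at chr7:122159185-122159484 (plus strand).
Mki67: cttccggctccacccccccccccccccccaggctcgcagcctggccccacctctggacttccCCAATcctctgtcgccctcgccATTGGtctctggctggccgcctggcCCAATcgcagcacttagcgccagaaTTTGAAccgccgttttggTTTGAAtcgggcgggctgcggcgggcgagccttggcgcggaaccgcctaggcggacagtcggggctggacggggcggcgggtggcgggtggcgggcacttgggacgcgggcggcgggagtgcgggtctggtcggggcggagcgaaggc
Cenpf: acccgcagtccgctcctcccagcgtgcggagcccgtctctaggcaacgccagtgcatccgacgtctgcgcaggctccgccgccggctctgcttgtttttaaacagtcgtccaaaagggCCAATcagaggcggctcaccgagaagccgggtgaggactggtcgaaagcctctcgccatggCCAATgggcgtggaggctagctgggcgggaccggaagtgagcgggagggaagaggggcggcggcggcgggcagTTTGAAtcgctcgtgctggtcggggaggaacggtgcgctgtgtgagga
Ndc80: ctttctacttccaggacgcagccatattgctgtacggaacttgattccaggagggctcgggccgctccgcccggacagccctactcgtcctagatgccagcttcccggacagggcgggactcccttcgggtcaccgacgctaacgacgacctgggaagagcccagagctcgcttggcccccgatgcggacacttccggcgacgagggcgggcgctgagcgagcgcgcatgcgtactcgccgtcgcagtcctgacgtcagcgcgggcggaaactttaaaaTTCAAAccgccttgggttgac
Cdca3: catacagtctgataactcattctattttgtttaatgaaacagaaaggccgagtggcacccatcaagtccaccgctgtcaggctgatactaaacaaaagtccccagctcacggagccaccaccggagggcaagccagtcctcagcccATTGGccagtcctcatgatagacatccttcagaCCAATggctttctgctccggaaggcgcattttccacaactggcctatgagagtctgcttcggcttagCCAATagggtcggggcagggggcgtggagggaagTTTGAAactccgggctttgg
Plk1: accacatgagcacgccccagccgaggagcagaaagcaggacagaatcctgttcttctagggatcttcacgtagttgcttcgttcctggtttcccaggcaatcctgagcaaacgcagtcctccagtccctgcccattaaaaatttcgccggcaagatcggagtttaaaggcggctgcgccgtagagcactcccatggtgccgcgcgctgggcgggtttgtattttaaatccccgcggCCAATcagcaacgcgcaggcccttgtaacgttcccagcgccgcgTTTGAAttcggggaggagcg
Mki67 holds 2 CHR matches upstream of its start site, and Cenpf, Cdca3 and Plk1 hold 1 each, all in the TTTGAA form. Ndc80 holds 1 on the other strand, read as TTCAAA, and is the only 1 of these 5 windows with no CCAAT box. These windows were chosen for a CHR, so its presence in them was fixed by the choice. In the window of Cenpe, whose untreated arrays lay widest apart, no CHR was found. Counts over the searched genes that varied in opposite ways on the arrays are given below.

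The treated and control arrays were compared to see whether transcripts of the mitotic programme differed after 24 h. Across the 33 genes no difference passed the test. The mean was higher with plumbagin for 13 genes and lower for 20, against 44.8% and 55.2% of all 17097 genes. Of the 6343 genes with a mean level between 6 and 10, 2038 were higher and 4305 lower. The split of the mitotic genes lay between these. The median difference was -0.045 (log2), against -0.012 over all genes and -0.064 over the 6343 genes with a mean level between 6 and 10. Single differences ran from -0.31 for Aurkb to 0.57 for Mki67, the antigen Ki-67, a 1.48-fold higher mean. None of the 33 genes passed limma with Benjamini-Hochberg adjustment over all genes (adjusted p = 1 for each), against 0% of all genes. At an unadjusted limma p under 0.05 there were again 0 of 33, against 0.257% of all genes higher and 0.731% lower (44 and 125 genes).

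The standard errors were wide for these genes, with a median of 0.25 against 0.10 over all genes, and all 33 of the 95% intervals held 0. All 33 genes lay above background, but only 8637 of the 17097 genes did. The median error of genes at like levels was not taken. The intervals do not show that the groups were alike. That of Cdk1 reached from -0.71 to 0.69 and that of Mki67 from -0.59 to 1.72. The fit leaves out the replicate numbers, so a gap between numbers widens these intervals. Within numbers 1 and 2, Cdk1 differed by -0.031 and 0.012 and Mki67 by 1.12 and 0.0086. The plumbagin and control arrays did not overlap for 1 gene lower and 0 genes higher, against 15.2% and 10.2% of all genes. In 31 of the 33 genes the gap between the 2 untreated arrays was larger than the difference between the group means. The same count was not made over all genes. A gap between single arrays also varies more than a difference between means of 2, so the count is only a description.

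**Figure D2:**
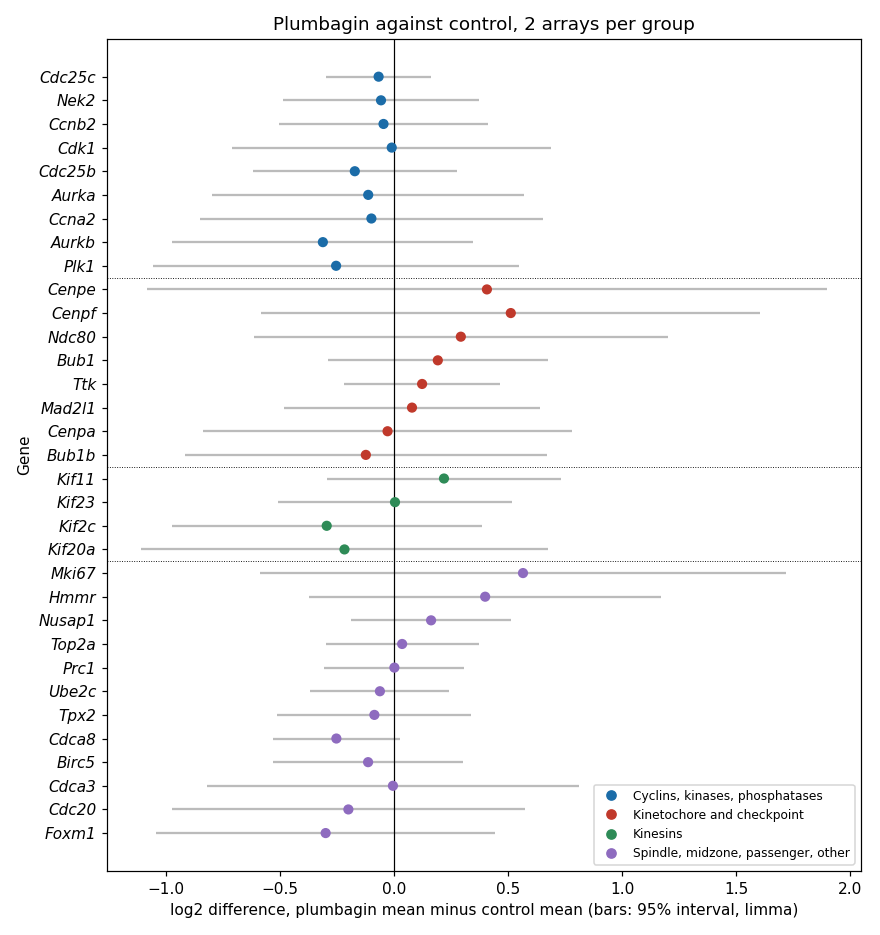
Difference of the plumbagin mean from the control mean for each measured mitotic gene (horizontal axis, log2; points coloured by role, bars the 95% interval of limma, 2 arrays per group). Every bar crosses 0, and the widest belong to Cenpe, Mki67 and Cenpf.

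The role groups differed in where their medians lay. Cyclins, kinases and phosphatases of mitotic entry had a median of -0.099 and kinesins of -0.11. Kinetochore and checkpoint genes had a median of 0.16, and the genes of the spindle, midzone, passenger complex and mitotic exit of -0.033. The difference between role groups was not tested, and, as given below, each median turned its sign with 1 or more arrays left out. With Cenpe, a kinesin that works at kinetochores, counted among the kinesins, the kinesin median was 0.0048 and the kinetochore median 0.12.

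Among the cyclins, kinases and phosphatases, 0 of 9 measured genes had a higher mean with plumbagin and 9 a lower one, all within the spread of the arrays. Plk1, the Polo kinase of mitotic entry, had log2 values of 8.31 in control 1, 7.69 in control 2, 8.04 in plumbagin 1 and 7.46 in plumbagin 2. The values are high on both arrays numbered 1 and low on both numbered 2, and the groups overlap. Its difference was -0.25 ± 0.30 (log2, SE, n = 2 per group), 1.19-fold lower with plumbagin. Aurkb, the kinase of the chromosomal passenger complex, was at 8.56 in control 1, 8.0 in control 2, 8.16 in plumbagin 1 and 7.77 in plumbagin 2. Its difference of -0.31 ± 0.25 was the lowest of the mitotic genes, and within each number it was lower with plumbagin (-0.39 in number 1 and -0.23 in number 2). Aurka, the kinase of the spindle poles, stood at 8.83 in control 1, 8.26 in control 2, 8.64 in plumbagin 1 and 8.22 in plumbagin 2, a difference of -0.11 ± 0.25.

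Cdk1 encodes the kinase at the centre of this group. It had values of 9.84 in control 1, 9.30 in control 2, 9.81 in plumbagin 1 and 9.31 in plumbagin 2. The pairs of arrays with 1 number nearly coincide and the numbers lie apart, so the difference between treatments was -0.0094 ± 0.26 while control 1 exceeded control 2 by 0.54. Ccna2 (cyclin A2) and Ccnb2 (cyclin B2) had the same order of numbers, with differences of -0.099 ± 0.28 and -0.045 ± 0.17. The phosphatase genes Cdc25b and Cdc25c, which remove the inhibitory phosphates from CDK1, are of interest as activators. Cdc25b was at 8.0 in control 1, 7.59 in control 2, 7.70 in plumbagin 1 and 7.55 in plumbagin 2, and Cdc25c at 6.15 in control 1, 6.04 in control 2, 6.05 in plumbagin 1 and 6.0 in plumbagin 2. Cdc25b differed by -0.17 ± 0.17 and Cdc25c by -0.067 ± 0.085, and control 1 was the highest array for both. Nek2, a kinase of centrosome separation, differed by -0.056 ± 0.16. In all 9 of 9 genes of this group control 1 was the highest of the 4 arrays, against 35% of all genes and 44.9% of those at levels of 6 to 10.

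Among kinetochore and checkpoint genes, 6 of 8 measured genes had a higher mean with plumbagin. The largest difference was that of Cenpf, a large protein of the outer kinetochore corona, which had values of 6.93 in control 1, 8.11 in control 2, 8.0 in plumbagin 1 and 8.07 in plumbagin 2. Control 1 lies about 1 log2 unit below the other 3 arrays, which lie close together. The difference was 0.51 ± 0.41 with all arrays and -0.074 without control 1. Ndc80, the microtubule-binding subunit of the outer kinetochore, had the same shape, at 6.96 in control 1, 7.92 in control 2, 7.78 in plumbagin 1 and 7.69 in plumbagin 2, a difference of 0.29 ± 0.34. Cenpe, the kinetochore kinesin that gathers chromosomes at the spindle equator, was at 5.92 in control 1, 7.48 in control 2, 6.90 in plumbagin 1 and 7.31 in plumbagin 2. Its gap of -1.56 between control 1 and control 2 was the widest of the mitotic genes, and its difference was 0.41 ± 0.55.

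The checkpoint genes differed in direction, all within the spread of the arrays. Bub1 was at 8.94 in control 1, 9.24 in control 2, 9.47 in plumbagin 1 and 9.10 in plumbagin 2, a difference of 0.19 ± 0.18, with control 1 lowest. Bub1b, which encodes the checkpoint protein BUBR1, went the other way between the untreated arrays (0.77, control 1 minus control 2) and differed by -0.12 ± 0.29. Ttk, the kinase MPS1, was at 6.66 in control 1, 6.70 in control 2, 6.95 in plumbagin 1 and 6.66 in plumbagin 2. Only plumbagin 1 departs there, and the difference was 0.12 ± 0.13. Mad2l1, which encodes the inhibitor MAD2 of the anaphase-promoting complex, differed by 0.079 ± 0.21. Cenpa, the histone H3 variant that marks centromeres, differed by -0.028 ± 0.30.

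The 4 kinesins were split, 2 with a higher mean and 2 with a lower one. Kif11, the motor Eg5 that pushes spindle poles apart, was at 6.29 in control 1, 6.79 in control 2, 6.80 in plumbagin 1 and 6.72 in plumbagin 2. Control 1 is the low array, and the difference was 0.22 ± 0.19. Kif2c, a microtubule depolymerase of the centromere, was at 7.20 in control 1, 6.55 in control 2, 6.73 in plumbagin 1 and 6.44 in plumbagin 2, a difference of -0.29 ± 0.25. Kif20a, a midzone motor needed for cytokinesis, stood at 7.93 in control 1, 7.09 in control 2, 7.52 in plumbagin 1 and 7.08 in plumbagin 2, and differed by -0.22 ± 0.33. Control 1 is the high array for both. Kif23, the motor subunit of the centralspindlin complex, had 6.43 in control 1, 6.02 in control 2, 6.38 in plumbagin 1 and 6.07 in plumbagin 2, with both arrays of number 1 above both of number 2 and a difference of 0.0048 ± 0.19.

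Of the genes of the spindle, midzone, passenger complex and mitotic exit, 5 of 12 had a higher mean with plumbagin. Cdca8, which encodes borealin of the chromosomal passenger complex, was at 8.73 in control 1, 8.55 in control 2, 8.44 in plumbagin 1 and 8.33 in plumbagin 2. It was the single mitotic gene with both plumbagin arrays below both controls, a difference of -0.25 ± 0.10 (1.19-fold lower), and its limma p was the smallest of the set (0.0661 unadjusted, adjusted p = 1). Its partner Birc5, which encodes survivin, differed by -0.11 ± 0.15. Mki67, the proliferation antigen that coats mitotic chromosomes, was at 8.46 in control 1, 9.70 in control 2, 9.59 in plumbagin 1 and 9.71 in plumbagin 2. Here 3 arrays lie close together and control 1 stands more than 1 log2 unit lower.

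Hmmr, a spindle assembly factor, had that shape too, with values of 7.47 in control 1, 8.23 in control 2, 8.39 in plumbagin 1 and 8.11 in plumbagin 2 and a difference of 0.40 ± 0.29. Nusap1, a microtubule binder around chromosomes, was at 8.29 in control 1, 8.60 in control 2, 8.64 in plumbagin 1 and 8.58 in plumbagin 2, a difference of 0.16 ± 0.13. Top2a, the topoisomerase that untangles sister chromatids, was at 9.72 in control 1, 10 in control 2, 9.94 in plumbagin 1 and 9.85 in plumbagin 2, and differed by 0.036 ± 0.12. In these genes control 1 is the lowest array, and in Hmmr and Nusap1 it stands apart from the other 3. In Top2a it does not stand apart, at 9.72 against 9.85 in plumbagin 2. Another Top2a probe set above background had control 1 highest, at 6.61. Foxm1, the transcription factor of the G2/M programme, was at 8.15 in control 1, 7.44 in control 2, 7.65 in plumbagin 1 and 7.33 in plumbagin 2, which is the opposite order with control 1 highest. It differed by -0.30 ± 0.28. Cdc20, the activator of the anaphase-promoting complex, differed by -0.20 ± 0.29, Ube2c, its ubiquitin-conjugating enzyme, by -0.061 ± 0.11, and Cdca3 by -0.0041 ± 0.30. Tpx2, the activator of Aurora A on the spindle, differed by -0.086 ± 0.16, and Prc1, the crosslinker of midzone microtubules, by 0.0022 ± 0.11.

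**Figure D3:**
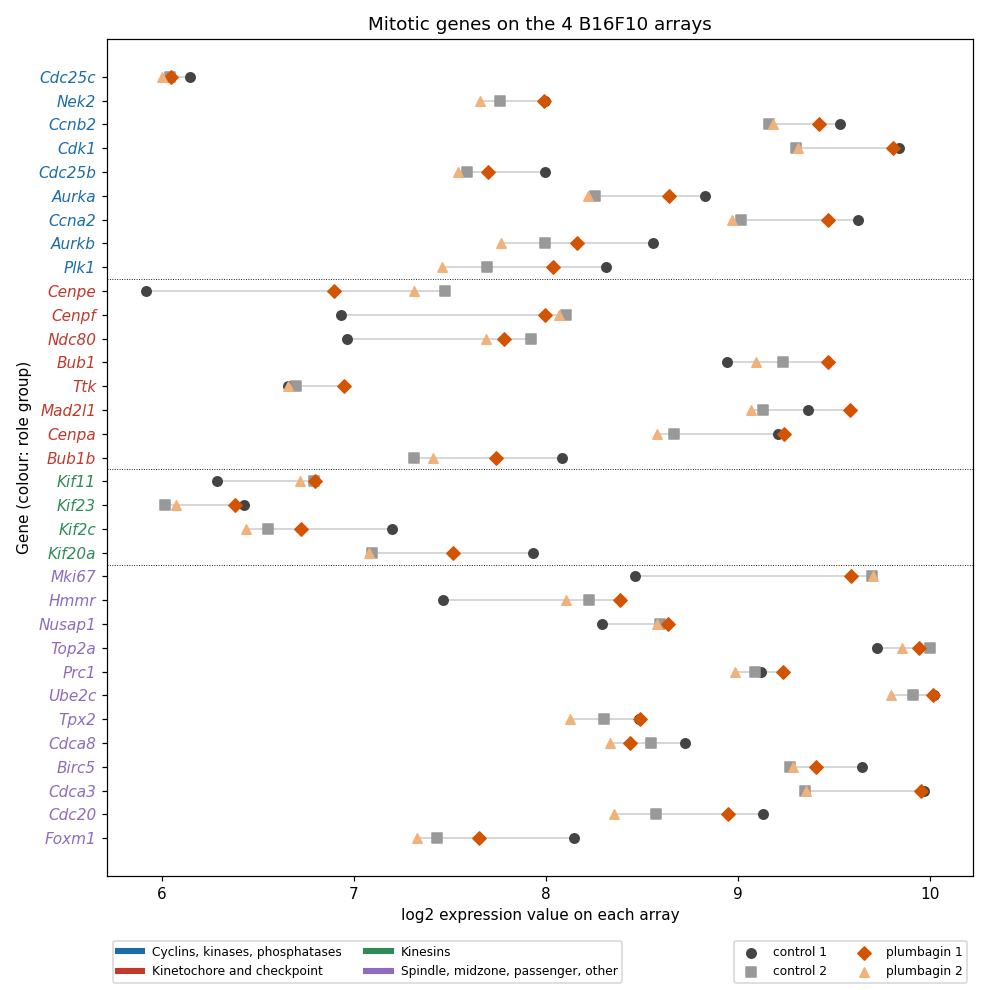
Log2 expression value of each measured mitotic gene on the 4 arrays (horizontal axis; circles control 1, squares control 2, diamonds plumbagin 1, triangles plumbagin 2; the grey line spans the 4 values, gene names coloured by role). Control 1 lies at the right end for the cyclins and kinases and at the left end for Cenpe, Cenpf, Ndc80, Mki67 and Hmmr.

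Within the replicate numbers of the sample titles, each a single array per group with no test, the mitotic genes spread widely in number 1 and little in number 2. This held for the whole array. In number 1, 303 of all genes were at least 0.5 higher and 428 lower, against 23 and 9 in number 2. Between plumbagin 1 and control 1 the median of the mitotic genes was -0.015, with single genes from -0.49 (Foxm1) to 1.12 (Mki67). A difference of at least 0.5 was reached upward by 7 genes and downward by 0, against 1.77% and 2.5% of all genes. At levels of 6 to 10 it was reached by 216 and 317 of the 6343 genes. These 7 genes were Mki67 (1.12), Cenpf (1.06), Cenpe (0.98), Hmmr (0.92), Ndc80 (0.82), Bub1 (0.53) and Kif11 (0.51). Of the 33 genes, 19 were lower with plumbagin in number 1, against 55.5% of all genes and 4577 of the 6343 genes at levels of 6 to 10. The median there of all genes at levels of 6 to 10 was -0.14.

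Between plumbagin 2 and control 2 the same genes lay at 0.0086, -0.037, -0.16, -0.12, -0.23, -0.14 and -0.074, in that order. No mitotic gene reached 0.5 in number 2 in either direction, against 0.135% of all genes higher and 0.0526% lower. The median there was -0.074, and 26 of 33 genes were lower with plumbagin, against 51.5% of all genes. The widest differences in number 2 were those of Plk1 (-0.24), Ndc80 (-0.23), Aurkb (-0.23), Cdc20 (-0.22) and Cdca8 (-0.22). Over both numbers, 13 genes were lower with plumbagin in both, 1 was higher in both (Mki67), 13 were higher in number 1 and lower in number 2, and 6 the reverse. The opposite pattern, higher in number 1 and lower in number 2, was found in 22.4% of all genes. The other patterns were not counted over all genes, so their counts here have no share to be set against.

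**Figure D4:**
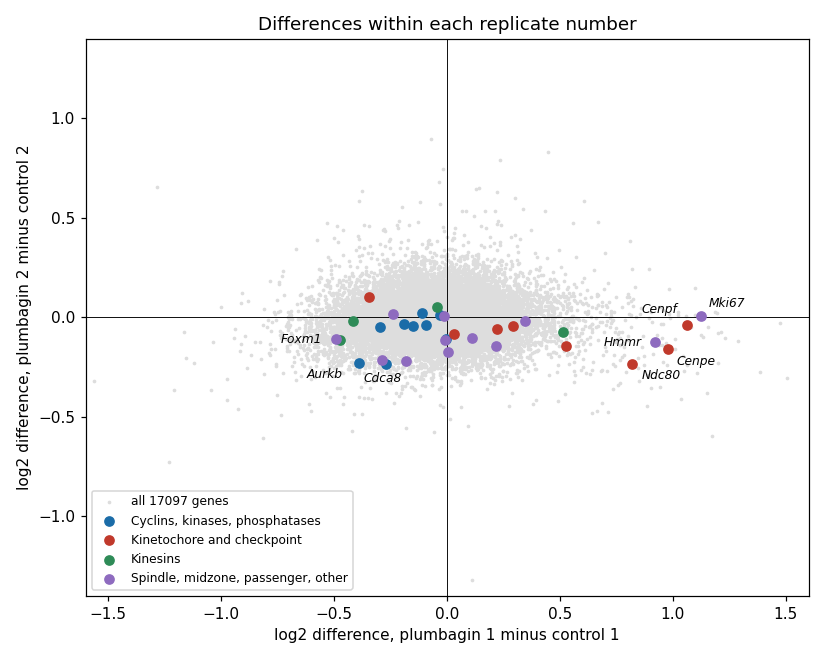
Log2 difference of plumbagin 1 from control 1 (horizontal axis) against that of plumbagin 2 from control 2 (vertical axis) for the mitotic genes, coloured by role, over all genes in grey. The mitotic genes reach 1.12 along the horizontal axis but stay within 0.24 of 0 on the vertical one. Among all genes, too, differences of at least 0.5 are more frequent along the horizontal axis.

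The untreated arrays themselves differed for these genes. The median size of the gap between control 1 and control 2, sign left aside, was 0.54 for the mitotic genes, against 0.11 for all genes and 0.20 for genes at levels of 6 to 10. It was at least 0.5 higher in control 1 for 12 mitotic genes and at least 0.5 lower for 6, against 2.5% and 3.98% of all genes. At levels of 6 to 10 it was so for 311 and 525 of the 6343 genes. Whatever the size, 23 of 33 were higher in control 1, against 59.2% of all genes. Control 1 was the lowest of the 4 arrays for 9 genes (Bub1, Cenpe, Cenpf, Hmmr, Kif11, Mki67, Ndc80, Nusap1, Top2a) and the highest for 19, against 18.3% and 35% of all genes. At levels of 6 to 10 the shares were 17.3% and 44.9%. Neither count of mitotic genes can be tested with 1 array. Because the difference between treatments uses control 1, its sign for a gene goes with this split: the mean was higher with plumbagin for 9 of the 9 genes with control 1 lowest and lower for 18 of the 19 with control 1 highest.

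The 9 and the 19 genes were grouped by the rank of control 1. Leaving out control 1 therefore had to lower the differences of the former and raise those of the latter. The median difference of the 9 genes went from 0.29 to -0.051, and that of the 19 genes from -0.11 to 0.075. The median of all 33 genes was 0.045 without control 1, -0.20 without control 2, -0.18 without plumbagin 1 and 0.11 without plumbagin 2. The number of genes with a higher mean was 23, 10, 8 and 26 of 33 in the same order, so the direction of the set depended on which arrays were used. The kinetochore median was -0.0092 without plumbagin 1 and 0.32 without plumbagin 2. The median of the cyclins and kinases was 0.061 without control 1 and -0.37 without control 2. In the same order, that of the kinesins was 0.12 and -0.41, and that of the spindle, midzone and exit genes 0.014 and -0.15.

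The gap between numbers was partly shared by the treated arrays. Plumbagin 1 exceeded plumbagin 2 in 30 of 33 mitotic genes, against 54.2% of all genes, with a median of 0.30. This gap was at least 0.5 upward for 6 genes and downward for 0, against 1.35% and 4.34% of all genes. At levels of 6 to 10 it was so for 139 and 543 of the 6343 genes. The sign of the gap was the same in the treated and untreated arrays for 26 of 33 genes. For the genes with control 1 lowest, the median gap was -0.76 between the controls and 0.080 between the treated arrays. For those with control 1 highest it was 0.56 and 0.33. A CHR was found in 7 of 9 windows of the first kind and in 12 of 14 of the second. These groups were formed from the values, so the counts are a description.

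Other probe sets of the same genes gave a check on the probes used. Beside the 33 used, 17 further probe sets of 14 genes lay above background. The gap between control 1 and control 2 had the same sign in 15 of 17, among them the second probe set of Cenpe (-1.38), that of Cenpf (-0.84) and 3 of Hmmr (-0.79 to -0.44). The exceptions were Tpx2 (-0.067 against 0.18) and Top2a (1.06 against -0.28). The size was not kept in all, and Kif11 had -0.090 against -0.51. Between plumbagin 1 and control 1, the second probe sets of Bub1 (0.14) and Kif11 (0.25) lay below 0.5. Those of Cenpe (0.70) and Cenpf (0.72) lay above it, and the 3 of Hmmr on both sides (0.29 to 0.75). The difference between treatments had the same sign in 13 of 17, and the other 4, of Ccna2, Bub1, Bub1b and Prc1, lay within 0.05 of 0. Cdca8 was lower with plumbagin in its second probe set as well (-0.35), again with both plumbagin arrays below both controls.

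Further genes of mitosis, outside the 35, were taken from 7 lists of 146 genes, of which 138 were measured. None passed limma in either direction (adjusted p = 1 for each), against 0% of all genes. At an unadjusted p under 0.05 there were 0 higher and 0 lower, against 0.257% and 0.731% of all genes. Of the 138, 58 had a higher mean with plumbagin and 80 a lower one, with a median of -0.044. That median was 0.0089 without control 1, -0.089 without control 2, -0.093 without plumbagin 1 and 0.039 without plumbagin 2, so its sign depended on the arrays used. Both plumbagin arrays lay below both controls in 18 of 138 and above both in 4, against 15.2% and 10.2% of all genes, which is no excess in either direction. In number 2, 103 of 138 were lower with plumbagin, with a median of -0.075, close to that of the genes above.

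Condensin, cohesin and separation genes, which compact and hold sister chromatids, had a median of 0.11, and 12 of 20 were higher. Control 1 was the lowest array for 12 of them, and the median gap between the controls was -0.24. Pds5b, a cohesin regulator, was at 7.45 in control 1, 8.01 in control 2, 8.15 in plumbagin 1 and 8.07 in plumbagin 2, and differed by 0.38 ± 0.21, and Wapl, which releases cohesin, by 0.19 ± 0.15. Subunits and activators of the anaphase-promoting complex had a median of -0.054, and 8 of 14 were lower. There, Cdc23 differed by -0.29 ± 0.17 and Ube2s, its chain-elongating enzyme, by -0.15 ± 0.096. Other kinetochore and centromere genes were lower in 23 of 35, with a median of -0.084. In that list Incenp, the scaffold of the passenger complex, was at 7.76 in control 1, 7.27 in control 2, 7.18 in plumbagin 1 and 7.06 in plumbagin 2, a difference of -0.40 ± 0.19, and Cenps differed by -0.33 ± 0.13. None of them passed the test.

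Other mitotic kinesins had a median of -0.014 over 9 genes, with Kif18a, a motor that limits chromosome oscillation, at 0.20 ± 0.26 and Kif14 at -0.11 ± 0.079, its levels below background. Other spindle and cytokinesis genes had a median of -0.053 over 28, with Bora, the activator of Aurora A, at -0.22 ± 0.10 and Cenpj, a centriole gene, at 0.28 ± 0.16, both of them below background. G2/M regulators and inhibitors had a median of -0.082, and 13 of 18 were lower. Gadd45a, a stress-induced inhibitor of CDK1 with cyclin B, was at 8.51 in control 1, 9.09 in control 2, 7.54 in plumbagin 1 and 8.67 in plumbagin 2. It had the widest difference of the list, -0.69 ± 0.44, and both plumbagin arrays lay below the control of the same number, though the groups overlap. Mastl, the Greatwall kinase, differed by 0.14 ± 0.077 at levels below background. The transcription factors and repressor subunits of these promoters had a median of -0.072 over 14 genes, and the NF-Y subunit genes Nfyc and Nfya differed by -0.16 ± 0.087 and -0.28 ± 0.15.

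**Figure D5:**
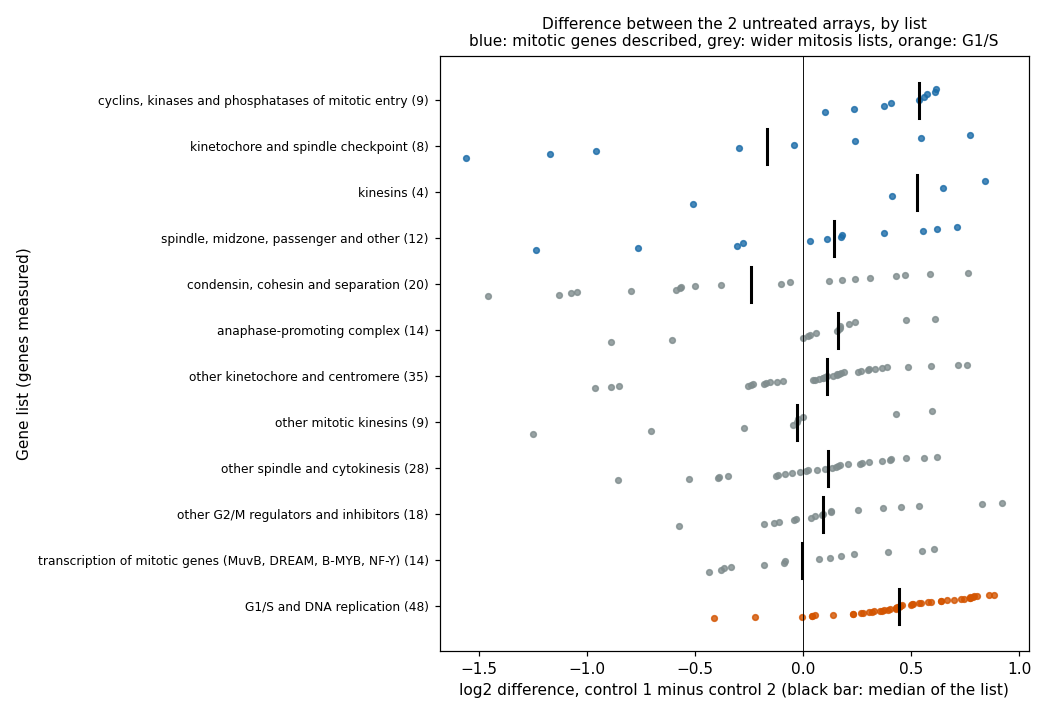
Log2 difference of control 1 from control 2 for each measured gene (points) of the role groups, the wider mitosis lists and the G1/S list, with the list's median as a black bar; the number measured is given after each name. Points of the kinetochore, spindle, condensin and cohesin, and other kinesin lists reach below -1, while the medians of the cyclins and kinases (0.54) and of the G1/S genes (0.45) lie to the right of 0.

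Genes of DNA replication and of the G1/S transition, the earlier wave of the cell cycle, were set beside the mitotic genes. Of 48 measured, 42 had a lower mean with plumbagin, against 55.2% of all genes. At levels of 6 to 10, 4305 of 6343 genes were lower. The median was -0.14, against -0.045 for the mitotic genes, and 0 passed the adjusted test. At an unadjusted limma p under 0.05 there were 0 higher and 1 lower (Rfc4), against 0.257% and 0.731% of all genes. Both plumbagin arrays lay below both controls in 6 and above both in 1, against 15.2% and 10.2% of all genes. The G1/S median was 0.098 without control 1, -0.38 without control 2, -0.31 without plumbagin 1 and 0.046 without plumbagin 2, so its sign also depended on the arrays used. The gap between the controls lay mostly in 1 direction in that list: 45 of 48 were higher in control 1, with a median of 0.45, against 23 of 33 and 0.24 for the mitotic genes. In number 2 the lists were near each other, with medians of -0.080 and -0.074 and 41 of 48 and 26 of 33 genes lower. Rfc4, a clamp loader subunit, had the smallest p of that list and was at 9.21 in control 1, 8.89 in control 2, 8.66 in plumbagin 1 and 8.70 in plumbagin 2, a difference of -0.37 ± 0.13 (adjusted p = 1 in limma), with both plumbagin arrays below both controls. Rfc1, the largest subunit of the same complex, had the next smallest and differed by 0.31 ± 0.15. The difference between the lists was not tested.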

How the data were processed

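The authors deposited a single table of log2 values, with a row for each probe set. The submitters' processing notes list Expression Console, RMA and Transcriptome Analysis Console, without their roles or versions. RMA removes background and equalises the distributions of the arrays, so a shift of most genes would be removed. Of 45141 probe sets, 28898 had 1 gene symbol in the platform annotation, 551 had several, and 15588, control probe sets aside, were unnamed here. Symbols were updated through Entrez numbers (RefSeq, GRCm38.p6).

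Groups came from the sample titles. Differences were fitted over all 17097 genes with lmFit and eBayes of limma 3.58.1 (R 4.3.3), without covariates, two-sided, Benjamini-Hochberg threshold 0.05; errors are its moderated SE. The code was tested on simulated data. Full array values were given for up to 4 genes with the smallest p per role, for genes whose groups do not overlap and for standard proliferation genes (Cenpe was added after seeing its values), and up to 2 genes per further list were named. The genes and lists were chosen with earlier results of these data known. Alternatives were other uses of probe sets, filters on dim genes, normalizations, variance models, the replicate number as a block, and each array left out. Array number, 2 per group, limits the precision.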

Additional observations from a re-analysis of the deposited data

How the results depend on the processing

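No gene of the array passed the adjusted limma test under any of the 14 alternatives. The fit with the replicate number as a block called 0 genes too, with 434 genes and 3 mitotic genes at an unadjusted p under 0.05, against 169 and 0 without it. With centred arrays, 222 genes and 1 mitotic gene had an unadjusted limma p under 0.05. With every probe set on its own, 315 probe sets and 2 mitotic ones did. Under the other alternatives with all arrays no mitotic gene did. The gap between control 1 and control 2 correlated with that between plumbagin 1 and plumbagin 2 at 0.54 over all genes. Over the 33 mitotic genes the correlation was 0.78. Samples of the same number thus shared part of their values, while the labels give them only that number in common. Why they did so was not tested. Every median of the set and of its role groups moved by less than the spread between replicates. That spread was wide (0.14 to 0.32), so this does not show that the medians were stable, and their signs turned with arrays left out. The median of the whole set was 0.0023 when quantile normalization was repeated and 0.011 under cyclic loess, against -0.045. The kinesin median was 0.063 with every probe set on its own, against -0.11, and the median of the spindle, midzone and exit genes was 0.014 under cyclic loess, against -0.033. The filters, the variance models and the block leave a gene's difference unchanged, so signs could turn only with averaged probe sets or other normalizations. For the 15 genes with 1 probe set, averaging changes nothing either. Of the 33 mitotic genes, 26 kept their sign under all 9 alternatives per gene with all arrays. The others were near 0: with repeated quantile normalization Cdca3 0.012, Cdk1 0.015, Cenpa 0.0048, Nek2 0.0023; with cyclic loess Ccnb2 0.0071, Cdca3 0.044, Cdk1 0.040, Cenpa 0.030, Nek2 0.011; with centred arrays Kif23 -0.014, Prc1 -0.017; with averaged probe sets Prc1 -0.0078. With 1 array left out, the lone array being assumed to vary like the other group, 27 genes turned their sign, 22 of them without control 1, and their differences ranged as follows: Aurka -0.40 to 0.18, Birc5 -0.30 to 0.075, Bub1b -0.51 to 0.26, Ccna2 -0.40 to 0.21, Ccnb2 -0.23 to 0.14, Cdc20 -0.50 to 0.098, Cdc25b -0.37 to 0.031, Cdca3 -0.31 to 0.31, Cdk1 -0.28 to 0.26, Cenpa -0.36 to 0.30, Cenpe -0.37 to 1.19, Cenpf -0.074 to 1.10, Foxm1 -0.65 to 0.056, Kif11 -0.034 to 0.47, Kif20a -0.64 to 0.20, Kif23 -0.20 to 0.21, Kif2c -0.62 to 0.029, Mad2l1 -0.18 to 0.34, Mki67 -0.051 to 1.18, Ndc80 -0.19 to 0.77, Nek2 -0.23 to 0.11, Plk1 -0.56 to 0.055, Prc1 -0.12 to 0.13, Top2a -0.10 to 0.17, Tpx2 -0.27 to 0.096, Ttk -0.024 to 0.27, Ube2c -0.17 to 0.048. Without control 2 the unadjusted count was 10 mitotic genes and 790 of all genes. The cause was not tested. The gap between the untreated arrays, tried under alternatives added after seeing the data, had a median of -0.82 to -0.39 for the genes with control 1 lowest and 0.46 to 0.56 for those with it highest.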

Other observations

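The genes with control 1 lowest were longer in the genome than those with control 1 highest. Their median RefSeq gene span (GRCm38.p6, exons and introns) was 31868 bp over 9 genes, against 12076 bp over 19 and 21815 bp over the 5 in between. Among all genes with a mean level between 6 and 10 the medians were 43285 bp for the 1100 with control 1 lowest and 20064 bp for the 2851 with it highest, the same order as in the mitotic set. The span was examined after the values were seen. Transcript length was not measured here, and the part of RNA integrity was not tested.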
